A study of Mus musculus with 4 samples.

Results

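Chromatin accessibility was examined at 10 mouse genes of canonical WNT signalling: Ctnnb1, Axin1, Axin2, Lef1, Tcf7, Tcf7l1, Tcf7l2, Znrf3, Rnf43 and Lgr5. The genes were listed by name as effectors and feedback regulators of the pathway, and all 10 were found among 21627 protein-coding genes of the autosomes and X. A peak of ATAC-seq, an assay in which the Tn5 transposase cuts open DNA, was given to a gene when it lay inside the gene or within 1 kb of it. Other peaks went to the gene when the nearest protein-coding gene end was the gene's and lay within 100 kb of the summit. In this way 89 of 49394 peaks were assigned in Gata2WT and 82 of 44139 in Gata2cKO. Each of the 10 genes had at least 1 peak in each list.

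The cells were germ cells enriched with anti-SSEA1 magnetic beads from ovaries of female C57BL/6J mouse embryos at E14.5 (embryonic day), about 10000 cells per library. Embryos came from crossing Gata2flox/+ Prdm1-Cre males with Gata2flox/flox females, so every embryo inherited at least 1 floxed allele from its mother. The 4 samples were 2 labelled Gata2WT and 2 labelled Gata2cKO. In Gata2cKO embryos the gene of the zinc finger factor GATA2 is deleted by a Cre that follows Prdm1, which is switched on as germ cells form. The labels do not say whether Gata2WT embryos carried Cre or how many embryos went into a sample. Per its title, the series concerns GATA2 in the exit from pluripotency and in the entry into meiosis.

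In canonical WNT signalling, a WNT ligand stops the destruction complex, which AXIN1 and AXIN2 scaffold, from marking beta-catenin for breakdown. Beta-catenin, the product of Ctnnb1, then enters the nucleus and acts with the DNA-binding factors TCF7, LEF1, TCF7L1 and TCF7L2. Axin2, Lef1, Lgr5, Rnf43 and Znrf3 are known targets of the pathway in many tissues. ZNRF3 and RNF43 are ubiquitin ligases that remove WNT receptors from the cell surface, and LGR5 binds R-spondins, which restrain these ligases. In the fetal ovary WNT4 and RSPO1 from somatic cells are needed for female development.

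For each genotype there was 1 combined peak list, so there was no replicate error, no test between genotypes and no p-value between them. Strength is given as the −log10 q of the authors' peak caller and as the summit pileup, the number of fragments stacked at the peak's highest point, which was recovered from the deposited values. Genome background stood at 2.19 fragments (Gata2WT) and 2.01 (Gata2cKO), and the weakest peak of either list had a pileup of 8 fragments. These values were not scaled between the lists, so values of 1 site from both lists stand side by side and no change is read from them. A peak with no overlap of at least 1 bp in the other list is called WT-only or cKO-only. Its absence from the other list means that the site missed the authors' threshold there, not that it was closed. In bulk ATAC-seq, fewer cells of a type and less access per cell cannot be told apart.

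Most peaks of the WNT genes were found in both genotypes, and so was each one with a −log10 q of 10 or more. Of the 89 Gata2WT peaks, 27 were WT-only (30.3%, 95% Wilson interval 21.8 to 40.5), against 28.5% of all Gata2WT peaks. Of the 82 Gata2cKO peaks, 21 were cKO-only (25.6%, 17.4 to 36.0), against 19.7% of all Gata2cKO peaks. Both intervals hold the share of all peaks and cover counting error only. No single-list peak of these genes reached a −log10 q of 10: the WT-only peaks ran from 1.12 to 5.66 with a median of 2.59, and the cKO-only peaks from 1.07 to 7.78 with a median of 2.44. By contrast 19 of the shared Gata2WT peaks and 17 of the shared Gata2cKO peaks had a −log10 q of at least 10. Their strongest reached 56.2 and 50.6. With both lists brought to the same length, 17 of 75 Gata2WT peaks (22.7%) and 24 of 82 Gata2cKO peaks (29.3%) were single, where all peaks gave 23.1% and 22.8%. That setting turned the order of the WT-only and cKO-only counts. So did counting only peaks in the gene and its 1 kb flanks (13 WT-only and 16 cKO-only), and with gene ends within 20 kb the counts were equal (19 and 19).

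**Figure D1:**
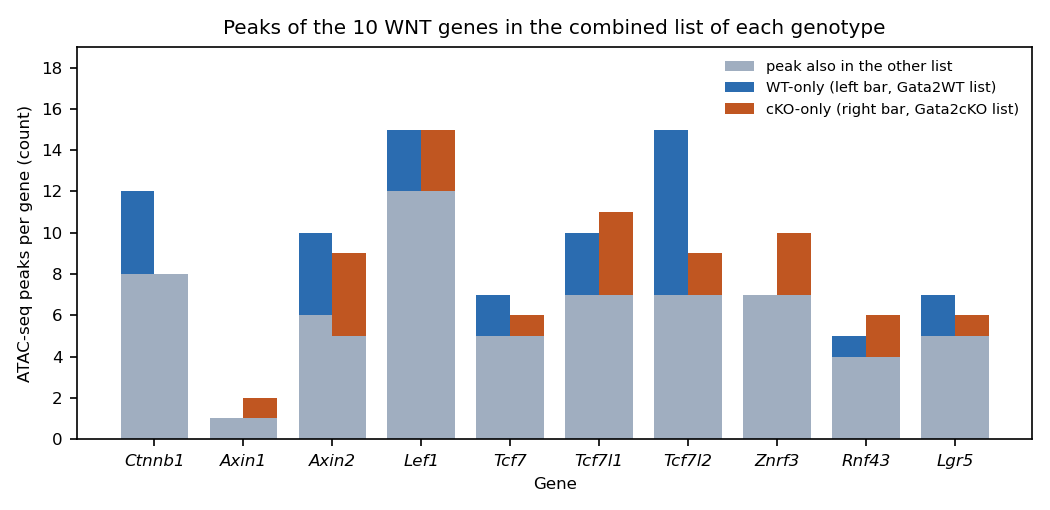
Number of ATAC-seq peaks (vertical axis, count) given to each gene (horizontal axis) in the Gata2WT list (left bar) and the Gata2cKO list (right bar). Grey parts are peaks that overlap a peak of the other list, blue parts WT-only and orange parts cKO-only peaks; at Tcf7l2 8 peaks are WT-only and 2 cKO-only, at Znrf3 0 and 3.

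The share of single-list peaks followed peak strength, in the WNT genes as in the whole lists. Among Gata2WT peaks with a −log10 q under 2, 11 of 15 WNT gene peaks were WT-only (73.6% of all peaks in this class). From 2 to 5 there were 13 of 31 (52.5% of all) and from 5 to 10 there were 3 of 24 (20.5% of all). In the Gata2cKO list the same classes held 6 of 14 (59.7% of all), 12 of 33 (38.9%) and 3 of 18 (12.5%). Summed over the classes, the shares of all peaks would put 32.5 WT-only and 23.6 cKO-only peaks among the WNT genes, where 27 and 21 were found. Both sums were thus somewhat below what these shares give, but not in each class. In the Gata2WT class under 2 the shares give 11.0 where 11 were found, and in the Gata2cKO class from 5 to 10 they give 2.25 where 3 were found. This is a description with no test, and no trait of the WNT genes is read from it.

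**Figure D2:**
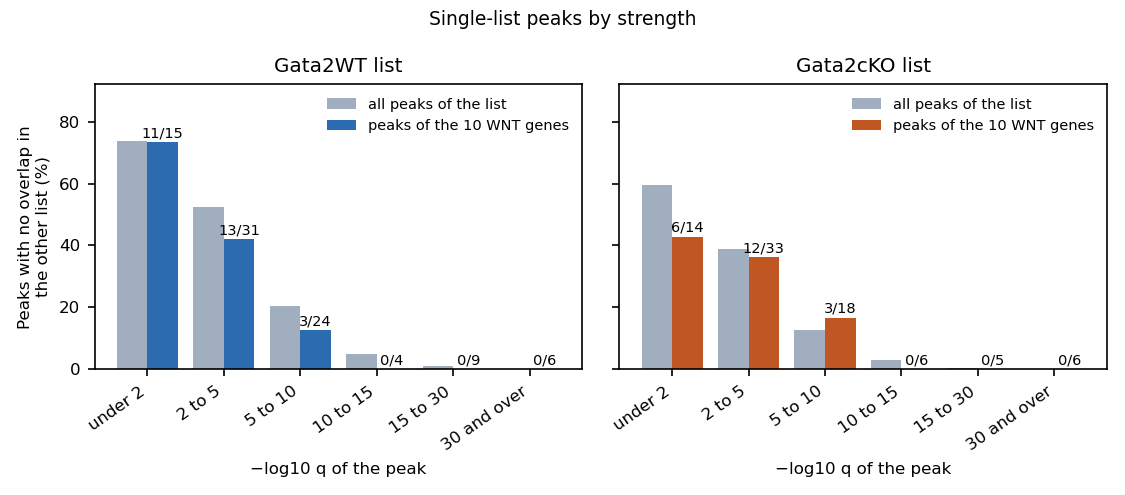
Share of peaks with no overlap in the other list (vertical axis, percent) by −log10 q of the peak (horizontal axis), for the Gata2WT list (left panel) and the Gata2cKO list (right panel). Grey bars are all peaks of a list, coloured bars the peaks of the 10 genes, with single-list peaks over all peaks of the class written above; no WNT gene peak of 10 or more is in 1 list alone.

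Peaks at the ends of the WNT genes were mostly shared. A gene end is the first or last annotated base of the gene with 1 kb on either side. Of 10 Gata2WT gene-end peaks none was WT-only, and of 11 Gata2cKO gene-end peaks 2 were cKO-only, 1 at Axin1 and 1 at Lef1. Over all genes 7.17% of Gata2WT and 4.51% of Gata2cKO gene-end peaks were single. By gene, both lists had a gene-end peak at 8 of the 10 (62.8% of all protein-coding genes), Axin1 had one in Gata2cKO alone (1.30% of genes), no member had one in Gata2WT alone (2.29% of genes), and Axin2 had none in either.

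The peaks formed 109 separate sites, 61 of them in both lists. Among shared sites, 41 had the higher −log10 q in Gata2WT and 20 in Gata2cKO, which is 67.2% against 64.9% of all shared peaks. Their median pileup was 19 fragments (Gata2WT) and 16 (Gata2cKO), and 27 and 24 over all shared peaks. The surplus of stronger sites in the Gata2WT list was thus close to that of the lists as a whole. By gene, the sites higher in Gata2WT were 5 of 12 at Lef1 and 3 of 7 at Tcf7l2, and they were the larger number at each of the other 8 genes. Summits lay close together, a median of 50 bp apart, and 55 of the 61 pairs were within 250 bp.

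**Figure D3:**
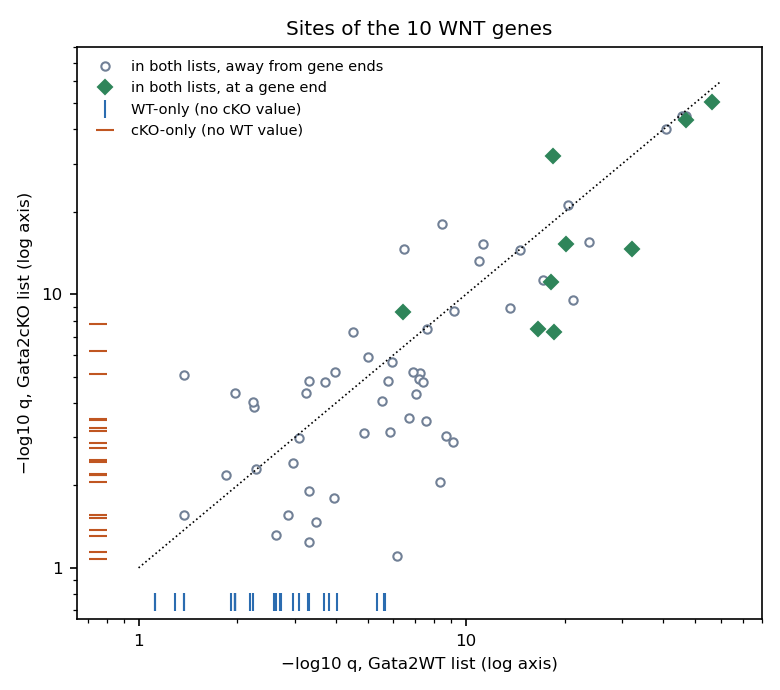
The −log10 q of each site of the 10 genes in the Gata2WT list (horizontal axis, log scale) against the Gata2cKO list (vertical axis, log scale); the dotted line marks equal values. Circles and diamonds are sites in both lists, blue and orange ticks along the edges are WT-only and cKO-only peaks, all of them below a −log10 q of 10.

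Ctnnb1, the gene of beta-catenin, lies on chromosome 9 from 120933400 to 120960507 (GRCm38, plus strand), and every peak given to it lay at its start or upstream. Downstream, the next gene Ulk4 lay only 3.95 kb away. Peaks beyond 1 kb of Ctnnb1 that were nearer to an end of Ulk4 were not given to Ctnnb1, so the rule leaves little room on that side. It had 12 Gata2WT and 8 Gata2cKO peaks, and none inside the gene beyond the start. The 8 Gata2cKO peaks were all shared, and 4 Gata2WT peaks were WT-only. The shared peak at the start, 120932859 to 120933632 in Gata2WT and 120932922 to 120933556 in Gata2cKO, covered all 250 bases before the first annotated start site. These bases are shown as the promoter of the pathway's central effector, from the RefSeq table of GRCm38.p6 (chr9:120933150-120933399, plus strand, 5′ to 3′).
Ctnnb1: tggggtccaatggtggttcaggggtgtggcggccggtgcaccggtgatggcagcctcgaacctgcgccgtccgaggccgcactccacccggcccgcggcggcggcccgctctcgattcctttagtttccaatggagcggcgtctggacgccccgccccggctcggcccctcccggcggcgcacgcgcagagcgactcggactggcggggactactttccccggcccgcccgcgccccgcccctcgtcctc
No TCF/LEF or GATA motif of those searched (spelled out further on) was in this window, so no letter is in capitals. The peak's −log10 q was 18.5 with 41 fragments in Gata2WT and 32.0 with 52 fragments in Gata2cKO. At the strongest gene-end or start-site peak of the other members the Gata2cKO pileup was lower, except at Tcf7l2 (21 and 22 fragments) and at Axin1, whose gene-end peak was cKO-only. Of all shared peaks, 68.2% had the higher pileup in Gata2WT, and pileups were not scaled between the lists.

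The 4 WT-only peaks of Ctnnb1 fell in 1 stretch between 18.1 and 39.7 kb upstream, among shared peaks. They were 120893470 to 120893951 (−log10 q of 5.66, 19 fragments), 120900666 to 120900950 (3.82, 14 fragments), 120908270 to 120908694 (2.19, 13 fragments) and 120915272 to 120915532 (1.92, 12 fragments). The strongest of them was also the strongest WT-only peak of all 10 genes. The third lay 422 bp from a Gata2cKO peak, the shared site 25.7 kb upstream. Of the 7 shared upstream sites, 5 had the higher −log10 q in Gata2WT, as did 64.9% of all shared peaks. Gata2WT first, the values at these 5 sites were 3.96 and 1.80 at 77.2 kb, 7.22 and 5.15 at 59.0 kb, 13.6 and 8.89 at 25.7 kb, 5.52 and 4.06 at 14.8 kb, and 23.7 and 15.5 at 6.19 kb. The other 2 were higher in Gata2cKO, with 8.44 and 18.0 at 89.7 kb and 11.3 and 15.3 at 42.4 kb. Of 17075 genes with any peak, 0.861% had at least 4 WT-only and no cKO-only peak, and of the 361 genes with 12 or more Gata2WT peaks 4.99% did. With equal list lengths 3 WT-only peaks were left, and with peaks of the gene and its 1 kb flanks alone there were 0. The next protein-coding gene on the upstream side, Rpl14, ended 358.7 kb away.

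The scaffold genes Axin1 and Axin2 each had 1 strong shared site near the lower end of the gene, and no other peak of theirs reached a −log10 q of 10. At Axin1 (chromosome 17, 26131217 to 26195811) this site lay 7.36 kb inside, 26138151 to 26139315 in Gata2WT, at 45.6 with 85 fragments (Gata2WT) and 44.6 with 73 fragments (Gata2cKO) in −log10 q and pileup. The cKO-only peak at the lower end of Axin1, 26131042 to 26131298, had a −log10 q of 2.49 and 10 fragments. It stood 6852 bp from the nearest Gata2WT peak, and it was the only other peak of this gene. Equal list lengths and the 2 other overlap rules kept it single; a −log10 q of at least 5 removed it.

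Axin2, a feedback inhibitor that WNT signalling itself switches on, lies on chromosome 11 from 108917828 to 108950783. Its start site in the promoter table, 108920349 (plus strand), sits inside that span and was covered by the strongest Axin2 peak in both lists. That peak ran from 108920144 to 108922081 in Gata2WT (46.8, 94 fragments) and from 108920085 to 108922056 in Gata2cKO (44.8, 88 fragments). It covered 205 and 250 of the 250 bases before the start, which are shown because Axin2 is the classical reporter gene of the pathway (chr11:108920099-108920348, plus strand).
Axin2: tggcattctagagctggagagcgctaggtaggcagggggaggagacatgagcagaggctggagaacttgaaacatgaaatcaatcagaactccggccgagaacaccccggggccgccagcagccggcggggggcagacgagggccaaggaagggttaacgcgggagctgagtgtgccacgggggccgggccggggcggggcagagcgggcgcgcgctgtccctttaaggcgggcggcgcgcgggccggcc
None of the searched motifs was found in it. Around this shared promoter, Axin2 held weak single-list peaks, 4 of each kind. Upstream of the gene lay 3 WT-only peaks, 15.2, 7.78 and 6.99 kb from its end, with a −log10 q of 2.73, 2.70 and 1.29, and no cKO-only peak. Inside the gene lay 2 cKO-only peaks, with 2.86 and 2.73, and no WT-only peak. The latter stood 712 bp from the nearest Gata2WT peak. Downstream were 2 cKO-only peaks (1.38 and 1.56) and 1 WT-only peak 61.2 kb away (1.97). A further shared site 28.4 kb upstream counts for Axin2 in Gata2WT alone, since the summit of its Gata2cKO peak was nearer to Cep112.

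Lef1, a DNA-binding partner of beta-catenin, had 15 peaks in each list, more than any other member over both lists together. It lies on chromosome 3 from 131110297 to 131224357 (plus strand). In each list 12 peaks were shared and 3 single, so the totals of both genotypes were equal. Its strongest Gata2WT peak, 131111247 to 131112687, had a −log10 q of 32.2 and 71 fragments, and the overlapping Gata2cKO peak, 131111818 to 131112730, had 14.7 and 42 fragments. The summits of the pair were at 131112352 and 131112365, just before an annotated start site at 131112791. The 2 strongest upstream sites of Lef1 had similar pileups in both lists, 43 and 40 fragments at 25.2 kb and 48 and 47 fragments at 4.14 kb.

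Lef1 counted as having a gene-end peak in both lists, but through different peaks. The Gata2WT peak reached to within 950 bp of the first start site at 131110297. The overlapping Gata2cKO peak began further inside, and the Gata2cKO gene-end peak was another one, the cKO-only peak 131110310 to 131110566 with its summit 152 bp after that start. It had a −log10 q of 2.44 and a pileup of 28 fragments, the highest pileup of the 21 cKO-only peaks of these genes, with a fold enrichment over local background of 2.21. The nearest Gata2WT peak was 680 bp away. The 250 bases before this start, in no peak of either list, are shown to mark where the cKO-only peak begins (chr3:131110047-131110296, plus strand).
Lef1 first start: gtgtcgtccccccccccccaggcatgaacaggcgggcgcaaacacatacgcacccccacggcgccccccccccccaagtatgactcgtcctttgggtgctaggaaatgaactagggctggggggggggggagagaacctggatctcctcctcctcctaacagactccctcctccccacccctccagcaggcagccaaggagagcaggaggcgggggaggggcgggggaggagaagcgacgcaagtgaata
A further Lef1 start, at 131156294, lies inside the gene, and a weak shared peak stood after it. The peak began 215 bp after the start in Gata2WT (131156509 to 131156933, −log10 q of 2.24) and 41 bp after it in Gata2cKO (131156335 to 131156865, 3.86). Its upstream bases held more TCF/LEF motifs than those of any other member start, 3 of them, and 1 GATA motif (chr3:131156044-131156293, plus strand, motifs in capitals, with the TCF/LEF motifs on the other strand).
Lef1 internal start: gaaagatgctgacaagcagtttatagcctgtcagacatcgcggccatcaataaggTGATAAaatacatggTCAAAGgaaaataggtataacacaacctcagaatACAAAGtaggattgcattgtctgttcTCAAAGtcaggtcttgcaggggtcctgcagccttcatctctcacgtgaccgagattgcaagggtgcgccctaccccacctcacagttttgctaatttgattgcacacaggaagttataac
The other single-list peaks of Lef1 had a −log10 q from 1.97 to 3.46 and lay upstream or inside the gene in both lists.

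Tcf7 (chromosome 11, 52246527 to 52283383, minus strand), the gene of TCF1, had 7 Gata2WT and 6 Gata2cKO peaks. Its start was covered by 1 wide Gata2WT peak, 52282456 to 52283736 (16.6, 41 fragments), which met 2 Gata2cKO peaks, 52282565 to 52283071 (7.49, 26 fragments) and 52283343 to 52284465 (5.81, 23 fragments). The latter also met a further Gata2WT peak, 52284150 to 52284486 (3.84, 22 fragments). Tcf7 overlaps Skp1 in the gene table. The start thus had a peak in both lists, with different borders. The gene had 2 WT-only peaks, 5.50 kb beyond its 3′ end (5.62) and inside it (3.08), and 1 cKO-only peak 3.52 kb upstream (2.18). The shared site 31.0 kb upstream stood at 8.32 (Gata2WT) and 2.05 (Gata2cKO).

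Tcf7l1 (chromosome 6, 72626371 to 72789045, minus strand) encodes TCF3, which mostly represses its targets and restrains the pluripotency network. It had the strongest peak of the 10 genes in both lists, at its start. The peak ran from 72788202 to 72789756 in Gata2WT (56.2, 99 fragments) and from 72788108 to 72789899 in Gata2cKO (50.6, 88 fragments). It covered all 250 bases before the start site, which hold 1 TCF/LEF motif that begins 28 bases before the start (chr6:72789046-72789295, minus strand, motif in capitals).
Tcf7l1: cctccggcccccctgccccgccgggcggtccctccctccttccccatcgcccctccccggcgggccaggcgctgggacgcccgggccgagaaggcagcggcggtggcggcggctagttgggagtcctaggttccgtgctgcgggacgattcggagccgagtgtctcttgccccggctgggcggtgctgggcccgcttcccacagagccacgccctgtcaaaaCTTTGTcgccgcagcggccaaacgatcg
All 7 single-list peaks of Tcf7l1 lay inside its span of 162.7 kb. The 3 WT-only peaks had a −log10 q of 2.96, 5.33 and 1.97, and the 4 cKO-only peaks had 6.22, 3.24, 3.49 and 2.19. The weakest of the WT-only peaks, 72723933 to 72724388, ended 14 bp short of a Gata2cKO peak that overlaps another Gata2WT peak, so its status turns on those bases. Tcf7l1 lay 52.1 kb from its neighbour Kcmf1 on the start side.

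Tcf7l2 (chromosome 19, 55741797 to 55933659, plus strand), the gene of TCF4, had the largest surplus of WT-only peaks, with 8 against 2 cKO-only, and this surplus rested on weak peaks. The 8 WT-only peaks had a −log10 q from 1.12 to 4.05 and pileups from 8 to 14 fragments. The 2 cKO-only peaks had 2.05 and 5.10. Lists of equal length gave 3 and 4, and with a −log10 q of at least 2 in both lists 3 and 3. A surplus of 6 or more was seen in 0.404% of all genes with a peak and in 19.8% of the 167 genes with 15 or more Gata2WT peaks. By position, 3 WT-only peaks lay 36.5, 64.4 and 95.9 kb downstream of the gene, where the Gata2cKO list had no peak given to Tcf7l2.

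The strongest site of Tcf7l2 was not at its start but 83.6 kb inside the gene. It ran from 55825111 to 55825943 in Gata2WT (40.7, 60 fragments) and from 55825103 to 55825814 in Gata2cKO (40.2, 55 fragments). The start-site peak was weaker in both lists, with 6.41 and 8.64. The shared site 50.5 kb inside stood at 6.46 (Gata2WT) and 14.6 (Gata2cKO), and at 167.4 kb inside 8.65 and 3.02, so shared sites differed to both sides. An internal start of Tcf7l2, 55895321, lay 236 bp before a WT-only peak, 55895557 to 55895811 (1.97, 13 fragments), and 2 other WT-only peaks stood within 4 kb of it, 55891584 to 55892235 (3.31) and 55899039 to 55899363 (3.29). The nearest Gata2cKO peak was 13730 bp from this start. Its upstream bases are shown because 3 WT-only peaks stood around it, a choice made after their values were seen; they lie in no peak and hold 2 GATA motifs and 1 TCF/LEF motif (chr19:55895071-55895320, plus strand, motifs in capitals, with 1 GATA motif on the other strand).
Tcf7l2 internal start: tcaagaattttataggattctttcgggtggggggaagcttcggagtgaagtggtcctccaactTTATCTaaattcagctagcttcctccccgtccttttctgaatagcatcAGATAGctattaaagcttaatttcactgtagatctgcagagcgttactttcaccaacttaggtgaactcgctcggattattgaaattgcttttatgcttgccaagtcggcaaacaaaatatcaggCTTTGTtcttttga
With equal list lengths the count at Tcf7l2 changed sides, and the −log10 q of 1.97 next to the start is near the bottom of the list.

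**Figure D4:**
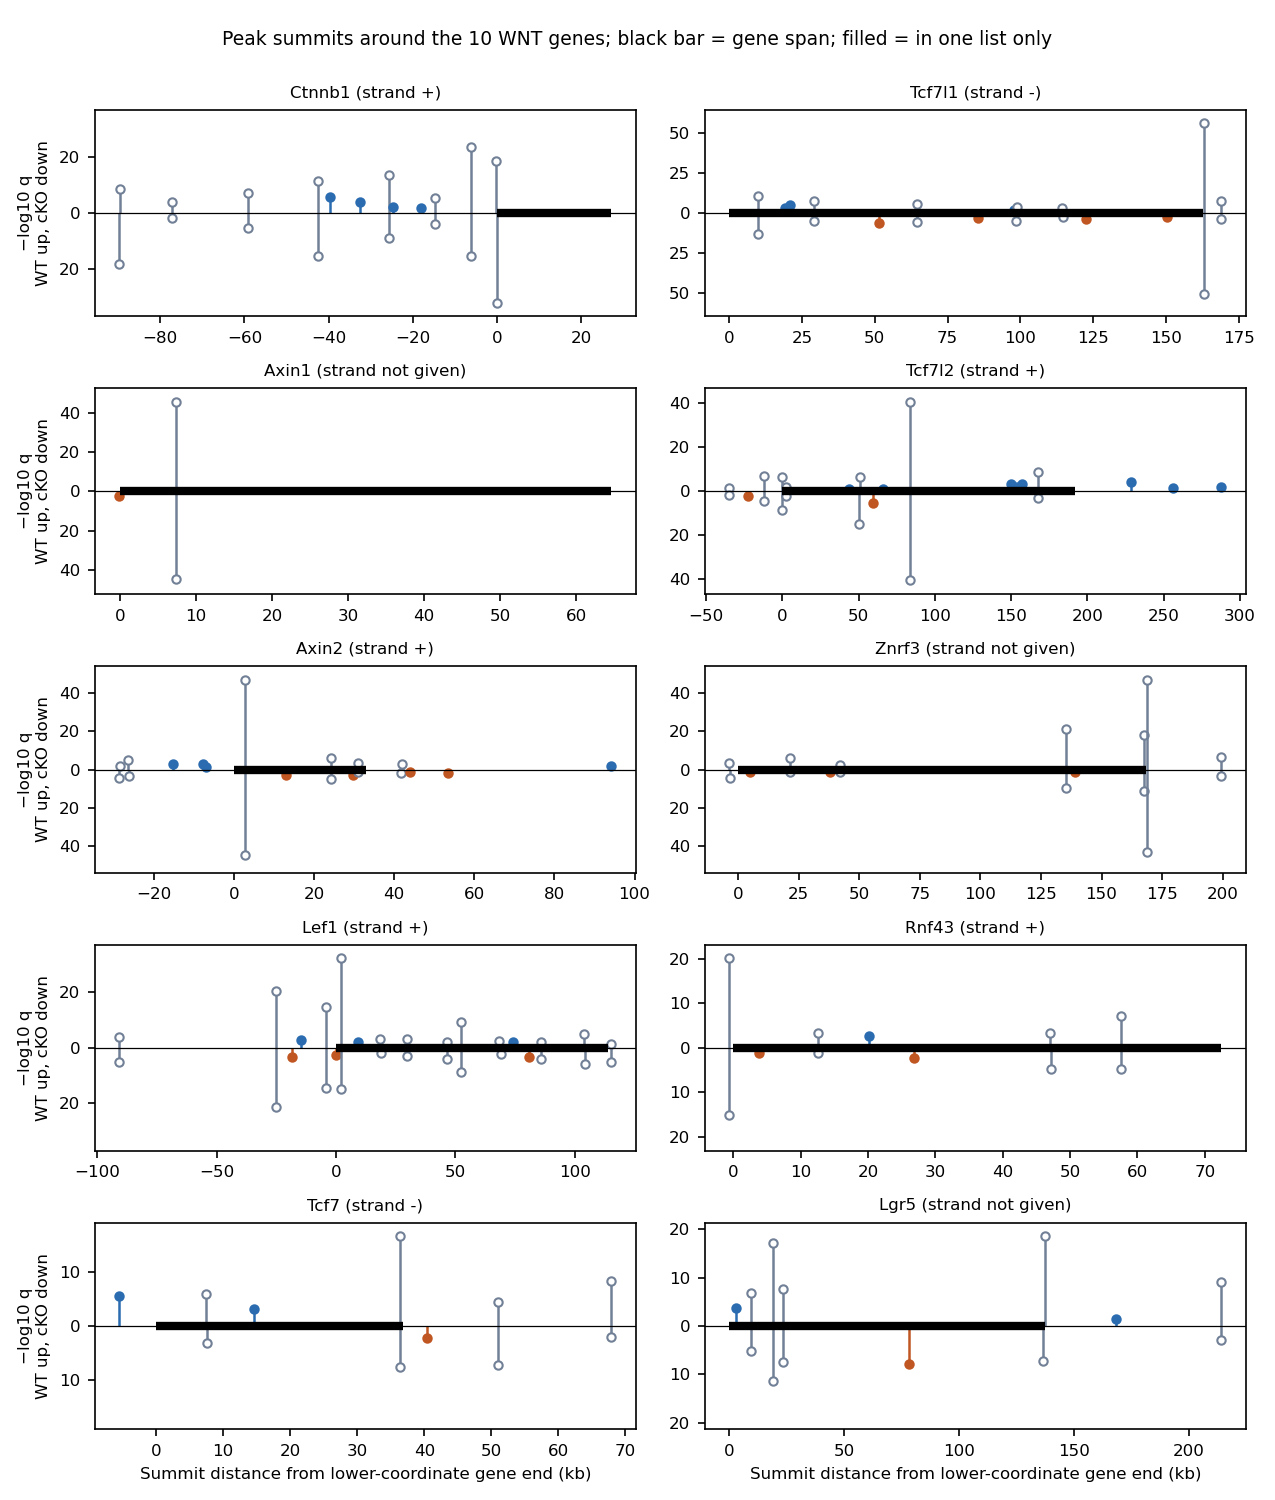
Peak summits around each of the 10 genes: distance from the gene end with the lower coordinate (horizontal axis, kb) against −log10 q (vertical axis, Gata2WT upward, Gata2cKO downward), with the gene span as a black bar. Open grey circles are sites in both lists, filled blue and orange circles WT-only and cKO-only peaks; the 4 WT-only peaks of Ctnnb1 lie between 18.1 and 39.7 kb on its upstream side.

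The 2 receptor ligase genes had more cKO-only than WT-only peaks, 3 and 0 at Znrf3 and 2 and 1 at Rnf43, all of them weak. At both genes this order turned with a −log10 q of at least 2 in both lists. Znrf3 (chromosome 11, 5276329 to 5444847) had 7 Gata2WT peaks, all shared, and 10 Gata2cKO peaks, 3 of them cKO-only. The 3 cKO-only peaks lay inside the gene, with a −log10 q of 1.31, 1.52 and 1.14 and 8, 8 and 11 fragments. With a −log10 q of at least 2 in both lists they were gone and 2 peaks became WT-only. A gene with at least 3 cKO-only and no WT-only peak was seen in 0.439% of genes with a peak and in 2.18% of the 459 genes with 10 or more Gata2cKO peaks. At its shared sites, 6 of 7 had the higher −log10 q in Gata2WT, the commoner order in these lists (64.9% of all shared peaks). The peak at its upper end had 46.8 with 85 fragments in Gata2WT and 43.2 with 74 fragments in Gata2cKO, and a site 135.5 kb from the lower end had 21.2 with 40 fragments and 9.53 with 23 fragments.

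Rnf43 (chromosome 11, 87663087 to 87735539, plus strand) had a shared peak 0.564 kb before its start, with 20.2 and 33 fragments in Gata2WT and 15.2 and 25 fragments in Gata2cKO. Inside the gene it had 3 further shared sites, 1 WT-only peak (2.59) and 2 cKO-only peaks (1.07 and 2.20). No peak lay near its second annotated start at 87699897, where the nearest peaks were 9829 bp away in Gata2WT and 9902 bp in Gata2cKO. Peaks were thus found at 1 of its 2 annotated starts. With a −log10 q of at least 2 in both lists, the difference of WT-only minus cKO-only peaks turned from -1 to 1.

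Lgr5 (chromosome 10, 115450314 to 115587780), the R-spondin receptor gene, had the strongest cKO-only peak of the 10 genes. This peak, 115528336 to 115528710, lay 78.1 kb inside the gene, had a −log10 q of 7.78 and 16 fragments, and stood 54300 bp from the nearest Gata2WT peak. All 5 shared sites of Lgr5 had the higher −log10 q in Gata2WT: the upper gene end with 18.5 (39 fragments) against 7.30 (21 fragments), 3 sites inside with 17.2, 7.60 and 6.87 against 11.3, 7.47 and 5.18, and a site 76.7 kb beyond the upper end with 9.11 against 2.88. This is the commoner order in these lists, seen at 64.9% of all shared peaks. The 2 WT-only peaks were weaker (3.69 and 1.37). Lgr5 overlaps A930009A15Rik in the gene table.

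Both kinds of single-list peak occurred together at most of these genes. WT-only peaks were found at 8 of the 10 genes (44.5% of all genes with a peak), cKO-only peaks at 9 (33.2%) and both at 7 (20.4%). The WNT genes had a median of 8.5 Gata2WT peaks against 2 for genes with any peak, so these counts were taken over more peaks per gene. By surplus, 4 genes had more WT-only peaks (Ctnnb1, Tcf7, Tcf7l2 and Lgr5; 32.5% of all genes with a peak), 4 had more cKO-only peaks (Axin1, Tcf7l1, Znrf3 and Rnf43; 16.7% of all), and Axin2 and Lef1 had equal numbers. Axin1 and Znrf3 had no WT-only peak, and Ctnnb1 had no cKO-only peak.

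The promoter windows of the WNT genes had a higher median GC content than promoters in general and held the searched motifs no more often. The RefSeq promoter table matched 7 members (Axin2, Ctnnb1, Lef1, Rnf43, Tcf7, Tcf7l1 and Tcf7l2) with 14 start sites, each with 250 bases before and 50 after the start. The TCF/LEF motif was searched as CTTTGA and as CTTTGT, and the GATA motif as AGATAA and as AGATAG, and further as TGATAA and as TGATAG, on both strands; TCF/LEF and GATA matches can share letters, but none of those in member windows did. A TCF/LEF motif was in 3 of the 14 windows (21.4%) and in 31.2% of all 32619 windows. A GATA motif was in 3 windows (21.4%) and in 29.6% of all. Median GC content was 67.3% against 53.0%. The windows ranged from 42.0% at the internal start of Tcf7l2 to 76.3% at a Tcf7 start. The later starts of Lef1, both starts of Rnf43 and the internal start of Tcf7l2 lay below 53.0%. Windows of neighbouring starts of Lef1 and of Ctnnb1 share bases, so the 14 are not separate. The matches fell in the internal starts of Lef1, Tcf7l2 and Rnf43 and the start of Tcf7l1. A match is a run of letters, not a bound site.

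Most of the rest of the pathway had gene-end peaks in both genotypes, as did 62.8% of all protein-coding genes. Such peaks were present in both lists at all 15 receptor and Dishevelled genes and all 6 R-spondin and LGR-family genes. The same held for 18 of 21 genes of WNT ligands and their secretion, 14 of 16 secreted or feedback antagonists, 9 of 10 other destruction complex genes, 15 of 17 nuclear cofactors and cadherins, and 14 of 16 target genes. The exceptions in 1 list alone were Wnt8b (2.88) and Dkk4 (2.63) in Gata2cKO and Myc, a growth regulator and WNT target, in Gata2WT (7.10). WT-only shares were 24.5% for ligands, 31.5% for receptors, 48.0% (12 of 25) for R-spondin and LGR genes, 22.4% for antagonists, 31.2% for the destruction complex, 23.6% for cofactors and 27.5% for targets. The cKO-only shares were 13.3%, 17.4%, 17.6%, 24.1%, 25.0% and 16.2% in the same order, and 9 of 62 for targets. Over all peaks the shares were 28.5% WT-only and 19.7% cKO-only. The 48.0% rests on 25 peaks of 6 genes. Over the 100 genes of these lists with a peak, 45 had more WT-only peaks (45.0%, against 32.5% of all genes with a peak), 13 had more cKO-only peaks (13.0%, against 16.7%) and 42 had equal numbers. These shares of genes depend on the number of peaks per gene, which was not matched, so no excess is read from them. The most WT-only peaks, 5 with 1 cKO-only, were counted at Wnt5b, Fzd10 and Bmp4. Gsk3b, a kinase of the destruction complex, counted 4 and 0, Btrc, which tags beta-catenin for breakdown, 4 and 3, and Fzd7, a WNT receptor gene, 4 and 2. Rspo1, Myc and Lgr4, another R-spondin receptor, counted 3 and 0. In the other direction Tnks, which marks AXIN for breakdown, Ccnd1, the cyclin D1 gene, and Dkk3 each counted 0 and 3.

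By count of WT-only, shared and cKO-only peaks, Tcf7l2 (8, 7 and 2) was nearest to Zswim6 (8, 6 and 2), Atxn7l1 (8, 7 and 3) and Pknox2 (7, 7 and 2), each 1 peak away in the sum of absolute differences. Znrf3 (0, 7 and 3) had the same counts as Zbtb40, Lrrn2 and 4931429L15Rik. These likenesses rest on 2 lists.

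Most germ cell markers had gene-end peaks, and so did markers of other ovarian cells. Over all protein-coding genes 62.8% had one in both lists and 2.29% in Gata2WT alone, so such a peak is common among genes of any kind. Of 12 germ cell genes, both lists had a gene-end peak at 10, Gata2WT alone at Pou5f1 and neither at Nanos3, and the median −log10 q was 37.4 (Gata2WT) and 34.1 (Gata2cKO). The strongest gene-end peak was weak at Pou5f1 (2.45, Gata2WT) and at Tfap2c (2.76 and 3.27, Gata2WT first). At Dppa3 the strongest was 5.24 in Gata2WT, with 1 gene-end peak, and 30.2 in Gata2cKO, with 2. Values of a gene from both lists need not belong to the same site. Of 12 genes of supporting and stromal cells, both lists had one at 7, Gata2WT alone at Amhr2 and Nr2f2, and neither at Nr5a1, Gata4 and Pdgfra, with medians of 13.1 and 13.3. Their summed gene-end −log10 q was 124.0 in Gata2WT and 94.9 in Gata2cKO, against 388.6 and 361.3 for the germ cell genes. The sums were also lower in Gata2cKO for 12 endothelial and blood genes (147.8 and 113.5) and for the 10 WNT genes (215.3 and 169.4). They run over unequal numbers of genes, 9 and 7 for supporting cells and 11 and 10 for germ cells. For the WNT genes the numbers were 8 and 9. Each sum takes the strongest gene-end peak of a gene in that list, which need not be the same site. Lef1 entered with 32.2 (Gata2WT) and 2.44 (Gata2cKO), while the Gata2cKO peak that overlaps the former had 14.7. Dppa3 entered the other way round, with 5.24 and 30.2. The values were not scaled between the lists, so no change is read from them. The WT-only share was 37.9% (22 of 58 peaks) for the supporting cell genes, 34.4% (21 of 61) for the germ cell genes and 20.0% (6 of 30) for 12 endothelial and blood genes, against 28.5% of all peaks. The cKO-only share was 9.76% (4 of 41), 22.6% (12 of 53) and 16.1% (5 of 31), against 19.7% of all peaks. Wnt4 and Rspo1 are in this list and in the pathway lists. Of the endothelial and blood genes, 7 carried a gene-end peak in each list, and Cdh5, Tie1, Ptprc, Csf1r and Cx3cr1 carried none in either. The part of these other cell types in the peaks of the WNT genes was not tested.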

How the data were processed

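ATAC-seq was made from 4 samples, 2 per genotype. Build GRCm38 (mm10) and the tools MACS2 2.2.6, Bowtie2 2.3.5.1, Trimmomatic 0.39, bedtools 2.29.2, Picard 2.23.0 and SAMtools were used upstream, per the submitters' processing notes. The Tn5 shift, parameters and the way replicates were combined were not given in the sources used here. Deposited values of each peak were a score (10 times the −log10 p, cut to a whole number), a fold enrichment ratio of summit over local background, and the −log10 p and −log10 q, as the authors' peak caller gave them. The lowest −log10 p was 3.00.

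Rows that shared an interval were merged to 1 peak with its strongest summit, on the autosomes and X (58367 rows to 49394 Gata2WT peaks, 52241 rows to 44139 Gata2cKO peaks). Pileup and background were solved from fold and −log10 p; the pileup was whole within 0.001 in −log10 p for 99.996% and 99.9955% of peaks. Read totals were not analysed here. Peaks were compared by overlap of at least 1 bp with pandas 2.3.3 and NumPy 2.4.6, and given to genes by the RefSeq table GRCm38.p6, which holds no strand or exons; strand and start sites came from the RefSeq promoter table. No genome sequence was used. The steps were tested on simulated data. The genes, lists and naming rule were chosen with earlier results of these data known. The text names all 10 genes with their gene-end, strongest and single-list peaks, and the rule takes from each other list the genes whose gene-end status differed and up to 3 per direction with the most single-list peaks (at least 2), of which the text gives a part. Alternatives covered the overlap rule, threshold, list length, merging and distance to a gene.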

Additional observations from a re-analysis of the deposited data

How the results depend on the processing

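The number of WT-only peaks of the 10 genes (27) moved with the setting more than the number of cKO-only peaks (21). WT-only peaks numbered 17 with equal list lengths (24 cKO-only) and 13 with peaks of the gene span and its 1 kb flanks alone (16 cKO-only), both below the cKO-only count. With peaks of a −log10 q of at least 5, 3 were WT-only and 3 cKO-only, where all peaks of that strength gave 7.61% and 4.74% against 6.98% and 8.57% here. Under the other 6 alternatives both counts stayed within 1.5 times the reported ones. The difference of WT-only minus cKO-only peaks changed sign at Tcf7l2 (from 6 to -1) with equal list lengths and also to -1 at a −log10 q of at least 5, at Lgr5 to -1 at that threshold, and at Znrf3 to 2 and Rnf43 to 1 with a −log10 q of at least 2 in both lists; the cause was not tested beyond the smaller number of peaks these settings leave. No paired analysis was possible because each genotype has 1 combined list with no replicate values, which also means that no replicate could be left out.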
